A study of Mus musculus with 35 samples.

Results

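Adipocytes of the mouse strains SV129 and C57BL/6J were compared after culture with rosiglitazone (ROSI). The 9 cultures labelled with this treatment and a culture time of 7 days were taken from the 35 cultures of the series: 5 of strain SV129 (replicates 1, 2, 3, 4 and 6) and 4 of strain C57BL/6J (replicates 2, 3, 4 and 6). The labels give the strain as C57BL/6J and the study's methods as C57BL/6, so that the substrain is not settled, and the name of the labels is used here. Each culture was measured on 1 Mouse Exon 1.0 ST array, whose probes cover exons along each gene. The cells were precursors from inguinal subcutaneous fat, put in medium with serum and insulin, and ROSI was given at 1 µM from the first day. The mice of both strains came from a commercial supplier, and the labels name no allele or transgene. The groups set beside them were day 7 cultures with no drug (4 of each strain), day 7 cultures with norepinephrine (NE, 1 µM, 5 of each strain) and untreated cultures at day 3 (4 of each strain). The treatment note of the labels lists both drugs for every culture, so a culture was placed by its own treatment label. The labels do not say whether the replicates came from separate animals, so that the p-values measure the spread between these cultures, which may be technical.

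ROSI is a ligand of PPARG, the nuclear receptor that drives fat cell differentiation, and it is known to raise genes of lipid storage, of fatty acid oxidation and, in cells of subcutaneous fat, of heat production. Ucp1, the uncoupling protein of brown and beige fat cells, lets protons back across the inner mitochondrial membrane so that the energy of respiration is released as heat. Inbred mouse strains are known to differ in how much Ucp1 their subcutaneous fat makes. Of 8 adipocyte markers, 7 were measured, and all 7 lay above the median signal of the array in every one of the 9 cultures. Adipoq (adiponectin) was 12.53 to 13.52 over the cultures, and Slc2a4, the insulin-responsive glucose transporter, was 8.95 to 10.83.

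The SV129 replicates 1 and 6 stood apart from the other cultures with ROSI. Values are log2 intensities. On the first principal component, which held 47.8% of the variance over all clusters, they scored -40.41 and -24.49, and the other 7 cultures scored between 0.08 and 15.5. On the second (15.6%), SV129 replicate 2 scored 27.01 and the others between -11.61 and 1.79. Correlations between arrays were 0.997 within C57BL/6J and 0.983 to 0.996 within SV129, with 0.995 between SV129 replicates 1 and 6. The median SD over clusters was 0.141 in SV129, 0.12 in its replicates 2, 3 and 4, and 0.088 in C57BL/6J. The culture labelled SV129 ROSI replicate 1 went against its label: over all clusters its root mean square distance was 0.107 log2 units to the mean of the SV129 cultures with NE, 0.179 to that of the SV129 controls and 0.316 to that of the other SV129 cultures with ROSI. The NE cultures themselves lay 0.118 to 0.217 from the mean of the other NE cultures. Replicate 6 lay about equally far from the NE (0.213) and the ROSI mean (0.209), and replicates 2, 3 and 4 were nearest to the ROSI mean. Each mean left out only the array compared, so the ROSI mean set against replicate 6 still held replicate 1. The distance of replicate 6 to the mean of replicates 2, 3 and 4 alone was not measured. Fabp3, a fatty acid carrier, was 8.58 in replicate 1, within the 8.10 to 8.83 of the SV129 cultures with NE, and 11.70 to 12.79 in the other SV129 cultures with ROSI. Whether this culture received the labelled treatment was not tested. The comparison was therefore repeated without these 2 cultures, as 3 SV129 against 4 C57BL/6J. The choice of cultures to leave out came from their values, so the second comparison is a description of stability and not an independent test. Among the other SV129 cultures, NE replicate 2 lay 0.217 from the mean of the NE cultures and 0.205 from that of the controls, and control replicate 1 lay 0.178 from the mean of the controls and 0.156 from that of the NE cultures. Both were kept under their labels.

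With ROSI, 8 of 17958 transcript clusters (0.0445%) differed between the strains at a limma adjusted p under 0.01, the threshold used throughout unless another is given. All 8 were lower in SV129 (0.0445%) and 0 were higher (0%). They include 7 autosomal clusters with 1 gene symbol, which are Pck1, Ucp1, Kcne3, Hc, Npr3, Lbh and Sim2. The remaining cluster has no single symbol. A difference is on the log2 scale and is SV129 minus C57BL/6J, so that a negative value is lower in SV129. The unadjusted p was under 0.05 for 2108 clusters, and the median difference over all clusters was 0.01. The count depended on single cultures: it was 1 or 2 when any of the C57BL/6J replicates 2, 3, 4 and 6 or the SV129 replicates 3 and 4 was left out, and 58 without SV129 replicate 2. Lbh passed in each of these models.

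The promoters of Ucp1 and Pck1 are shown because these were the genes with the largest differences among the 7. The sequences are those of RefSeq on GRCm38.p6, from 250 bases before to 50 bases after the annotated start, at chr8:83290098-83290397 for Ucp1 and chr2:173152823-173153122 for Pck1, both on the plus strand. Capitals mark AGGTCA, the half-site read by many nuclear receptors, in Ucp1 and ACGTCA, part of the cyclic AMP response element, in Pck1.
Ucp1: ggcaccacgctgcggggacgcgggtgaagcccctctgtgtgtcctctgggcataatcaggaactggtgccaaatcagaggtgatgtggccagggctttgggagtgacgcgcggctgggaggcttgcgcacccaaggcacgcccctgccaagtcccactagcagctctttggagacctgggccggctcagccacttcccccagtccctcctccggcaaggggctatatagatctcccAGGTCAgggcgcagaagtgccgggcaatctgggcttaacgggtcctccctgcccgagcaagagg
Pck1: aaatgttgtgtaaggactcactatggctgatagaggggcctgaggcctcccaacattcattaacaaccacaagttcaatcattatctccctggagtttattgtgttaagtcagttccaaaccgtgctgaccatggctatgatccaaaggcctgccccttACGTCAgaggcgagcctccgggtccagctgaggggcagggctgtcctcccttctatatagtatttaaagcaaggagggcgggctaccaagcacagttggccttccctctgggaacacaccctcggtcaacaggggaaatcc
Both strands were searched. AGGTCA began 14 bases before the start of Ucp1 and stands in 16.3% of 32851 promoters of this length. ACGTCA began 91 bases before the start of Pck1 and stands in 7.51% of them. Of the 7 genes, 6 had a promoter entry, and among these AGGTCA was found in Ucp1 alone and ACGTCA in Pck1 and Lbh. The longer forms that hold these letters, 2 copies of AGGTCA in the same direction with 1 base between them (0.0396% of promoters) and TGACGTCA (1.79%), were in none of the 6. These are matches of letters in the C57BL/6J reference and not measured binding. At such low shares, finding none in 6 promoters says little, and bases outside this window were not searched.

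Ucp1 (chromosome 8) was 8.13, 7.95, 7.90 and 8.14 in C57BL/6J replicates 2, 3, 4 and 6, and 7.10, 6.45, 6.77, 6.63 and 6.95 in SV129 replicates 1, 2, 3, 4 and 6. The groups did not overlap, and within SV129 the replicates 1 and 6 were the highest. The difference was -1.25 (SE 0.13), a level 2.38-fold lower in SV129 (limma adjusted p = 0.00469).
Pck1 (chromosome 2) encodes the cytosolic phosphoenolpyruvate carboxykinase, which in fat cells feeds the making of glycerol for triglycerides. Its signal was 8.22, 8.29, 7.80 and 8.35 in C57BL/6J and 6.91, 6.77, 7.00, 6.87 and 6.87 in SV129, in the same order of replicates. The 5 SV129 cultures lay close together and all below the lowest C57BL/6J culture. The difference was -1.28 (SE 0.11), or 2.43-fold lower in SV129 (limma adjusted p = 0.00252).

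Npr3 (chromosome 15), the clearance receptor that removes natriuretic peptides, was 9.52, 9.50, 9.57 and 9.56 in C57BL/6J and 8.67, 8.51, 8.56, 8.53 and 8.93 in SV129. The C57BL/6J cultures differed little among themselves, and SV129 replicate 6 came nearest to them without reaching them. The difference of -0.90 (SE 0.09) is 1.86-fold (limma adjusted p = 0.00469).
Kcne3 (chromosome 7), an accessory subunit of voltage-gated potassium channels, was 7.19, 6.55, 6.56 and 6.78 in C57BL/6J and 5.46, 5.66, 5.55, 5.66 and 5.75 in SV129. All 5 SV129 values lay in the lowest 25% of the signals of their arrays. The difference was -1.15 (SE 0.13, limma adjusted p = 0.00889).

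The other 3 genes were Hc, Lbh and Sim2. Hc (chromosome 2) encodes complement component C5, and it was 7.69, 7.72, 7.68 and 7.70 in C57BL/6J against 6.84, 6.20, 6.62, 6.65 and 6.82 in SV129. Its difference was -1.07 (SE 0.12, limma adjusted p = 0.00874). The C57BL/6J cultures had almost the same value, while SV129 replicate 2 lay below the other 4 SV129 cultures.
Lbh (chromosome 17), a transcriptional cofactor named for the limb bud and heart, was 9.15, 9.23, 9.19 and 9.22 in C57BL/6J and 8.46, 8.36, 8.24, 8.32 and 8.36 in SV129. Its difference of -0.85 (SE 0.06) had the smallest adjusted p of the 7, 6.81e-04 in limma. Both groups were tight and far apart.
Sim2 (chromosome 16), a basic helix-loop-helix transcription factor, was 7.65, 7.52, 7.56 and 7.71 in C57BL/6J and 6.94, 6.75, 6.71, 6.92 and 6.98 in SV129, a difference of -0.75 (SE 0.08, limma adjusted p = 0.00469). In none of the 7 genes did the cultures of the strains overlap, which was also so for 753 of 15070 autosomal clusters with 1 symbol (5%).

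**Figure D1:**
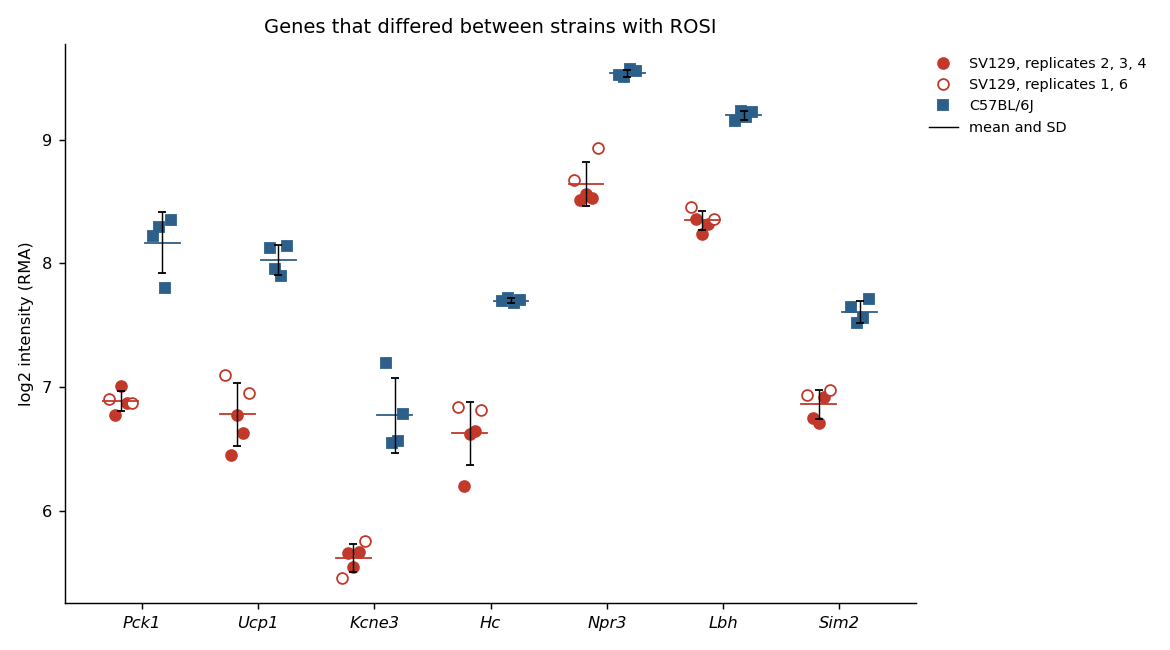
Log2 intensity (y axis) of the 7 autosomal genes with a limma adjusted p under 0.01, 1 point per culture with ROSI, squares for C57BL/6J (n = 4) and circles for SV129 (n = 5, open for replicates 1 and 6), with the mean and SD of each group. In each gene all SV129 cultures lie below all C57BL/6J cultures, as for Pck1 with 6.77 to 7.00 against 7.80 to 8.35.

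Of the 7 genes, 6 also passed without SV129 replicates 1 and 6, and the same 6 without replicate 1 alone. Kcne3 was at -1.11 (limma adjusted p = 0.016) without replicate 1. Without replicate 6 alone, Hc at -1.12 (limma adjusted p = 0.012) and Kcne3 at -1.19 (adjusted p = 0.015) missed the threshold, and the others passed. The values that follow are those without both replicates 1 and 6. Ucp1 differed by -1.41 (SE 0.10, limma adjusted p = 8.17e-04) and Npr3 by -1.01 (SE 0.06, adjusted p = 3.25e-04). Lbh differed by -0.89 (SE 0.06, limma adjusted p = 8.17e-04) and Hc by -1.21 (SE 0.11, adjusted p = 0.00284). Sim2 differed by -0.82 (SE 0.08, limma adjusted p = 0.00521) and Pck1 by -1.28 (SE 0.13, adjusted p = 0.00641). Kcne3 kept its size without both, at -1.15 (SE 0.15), and its limma adjusted p of 0.0169 missed the threshold.

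In all, 17 clusters (0.0947%) passed in the 7 cultures, 1 higher (0.00557%) and 16 lower (0.0891%) in SV129, and 1585 had an unadjusted p under 0.05. Of these, 15 are autosomal with 1 symbol: the 6 above and Lcn2, Scg2, Smoc2, Fhl2, Ccn4, P4ha3, Ednrb, Bmp4 and Acta2. Lcn2 was the only one higher in SV129, and the others named were lower. The count was 7 when any of the C57BL/6J replicates 2, 3 and 6 or the SV129 replicates 3 and 4 was left out, and 207 without SV129 replicate 2.

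Lcn2 (chromosome 2) encodes lipocalin 2, a secreted carrier of iron-binding siderophores that rises in inflammation. It was 10.36, 10.46, 10.30 and 10.59 in C57BL/6J and 13.18, 11.86, 12.37, 12.08 and 13.03 in SV129. The groups were apart by more than 1 log2 unit, and the SV129 replicates 1 and 6 were the highest of all. The difference was 2.08 (SE 0.25, limma adjusted p = 0.0119) over 9 cultures and 1.68 (SE 0.12, limma adjusted p = 8.56e-04) over 7, so the smaller difference had the smaller p.

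Several of the lower genes were closer to C57BL/6J in replicates 1 and 6. Smoc2, a matricellular protein of the SPARC family, was 8.60, 8.71, 8.61 and 8.68 in C57BL/6J and 8.33, 7.42, 7.54, 7.51 and 7.97 in SV129. It differed by -1.16 (SE 0.06, limma adjusted p = 3.25e-04) in 7 cultures and by -0.90 (SE 0.17, limma adjusted p = 0.0945) in 9, and replicates 1 and 6 were the SV129 cultures nearest to C57BL/6J.
Acta2, the smooth muscle actin, was 12.40, 12.34, 12.31 and 12.40 in C57BL/6J and 12.09, 11.63, 11.68, 11.53 and 12.21 in SV129. Here too the replicates 1 and 6 were the highest of SV129, and the difference was -0.75 (SE 0.06, limma adjusted p = 0.00272) without them and -0.53 (SE 0.14, limma adjusted p = 0.197) with them.
Ednrb, a receptor for endothelins, was 9.96, 10.09, 9.94 and 10.04 in C57BL/6J and 9.11, 9.12, 9.10, 9.12 and 9.53 in SV129. Only replicate 6 left the narrow range of the other SV129 cultures. Its difference was -0.90 (SE 0.06, limma adjusted p = 8.28e-04) in 7 cultures and -0.81 (SE 0.10, limma adjusted p = 0.0119) in 9.

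P4ha3, a subunit of the prolyl hydroxylase that modifies collagen, was the only one of the 15 genes in which the strains overlapped over 9 cultures. It was 9.25, 9.41, 9.27 and 9.63 in C57BL/6J and 9.69, 8.50, 8.51, 8.34 and 9.35 in SV129. Replicate 1 lay above every C57BL/6J culture and replicate 6 within their range. The difference was -0.94 (SE 0.10, limma adjusted p = 0.00798) without them and -0.51 (SE 0.27, limma adjusted p = 0.479) with them. P4ha3 and Kcne3 lie close together on chromosome 7, with 1 protein-coding gene between them.
Scg2 (a granin of secretory vesicles), Fhl2 (a LIM-domain cofactor) and Ccn4 (a matricellular protein) differed by -1.17 (SE 0.12), -1.11 (SE 0.11) and -1.08 (SE 0.09) in 7 cultures. Their limma adjusted p was between 0.00272 and 0.00659 there and between 0.0522 and 0.146 in 9 cultures. Bmp4, a ligand that acts on fat cell precursors, differed by -0.89 (SE 0.09, limma adjusted p = 0.00659) and, in 9 cultures, by -0.79 (SE 0.10, adjusted p = 0.0119).

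At an adjusted p under 0.05, 32 clusters differed in the 9 cultures (0.178%), 4 higher (0.0223%) and 28 lower (0.156%) in SV129. Of these, 27 were autosomal with 1 symbol, and 21 of the 27 also stood under 0.05 in the 7 cultures, where 66 of all clusters did (0.368%), while all 27 kept their sign. The 4 higher in SV129 were Lcn2, Vstm2a, Chrm3 and Il7. Vstm2a, a secreted immunoglobulin-domain protein, differed by 1.08 (SE 0.17, limma adjusted p = 0.0471), the muscarinic receptor Chrm3 by 0.64 (SE 0.09, adjusted p = 0.0261) and the cytokine Il7 by 0.43 (SE 0.07, adjusted p = 0.0414). Without replicates 1 and 6, these 3 stood at limma adjusted p = 0.0718, 0.055 and 0.0913. Il7 was in the lowest 25% of the signals on all 9 arrays.

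The genes lower in SV129 at this threshold that have not been named were Lgr5, Timp3, Abhd1, Adamts19, Gabra5, Ttpa, Clec4a3, Plscr2, Slc25a42, Tgm2, Serpinb6b, P2ry14, Pgr and Ovgp1. The largest difference among them was that of Lgr5, a receptor for R-spondins. It read 8.56, 8.58, 8.44 and 8.81 in C57BL/6J and 7.27, 6.66, 7.28, 7.46 and 7.58 in SV129. The strains were apart by -1.35 (SE 0.17, limma adjusted p = 0.0119) in 9 cultures and by -1.47 (SE 0.17, adjusted p = 0.0124) in 7.
Abhd1, an alpha/beta hydrolase that the RefSeq annotation of the C57BL/6J genome lists as a transcribed pseudogene, read 11.34, 11.19, 11.04 and 11.40 in C57BL/6J and 9.79, 10.37, 9.73, 9.63 and 10.25 in SV129. Its difference was -1.29 (SE 0.16, limma adjusted p = 0.0121), and -1.33 (SE 0.17, adjusted p = 0.0171) without replicates 1 and 6. Timp3, an inhibitor of matrix metalloproteinases, differed by -1.14 (SE 0.14, limma adjusted p = 0.0119) and -1.20 (SE 0.14, adjusted p = 0.0124).
Slc25a42, the mitochondrial carrier that brings in coenzyme A, differed by -0.77 (SE 0.11, limma adjusted p = 0.0261), and by -0.67 (SE 0.10, adjusted p = 0.026) in 7 cultures. P2ry14, a receptor for UDP-sugars, and Tgm2, a transglutaminase, differed by -1.01 (SE 0.15, limma adjusted p = 0.0277) and -0.70 (SE 0.10, adjusted p = 0.0261). In 7 cultures these were smaller, at -0.80 and -0.58. Clec4a3, Pgr and Ovgp1 were the 3 lower genes that no longer stood under 0.05 without replicates 1 and 6, at limma adjusted p = 0.0667, 0.0578 and 0.0725. Pgr, Ovgp1 and Gabra5 were among the dimmest 25% of clusters by their mean signal in the cultures with ROSI. Clec4a3, Plscr2 and Serpinb6b belong to families of close relatives, and their probes may read more than 1 member.

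**Figure D2:**
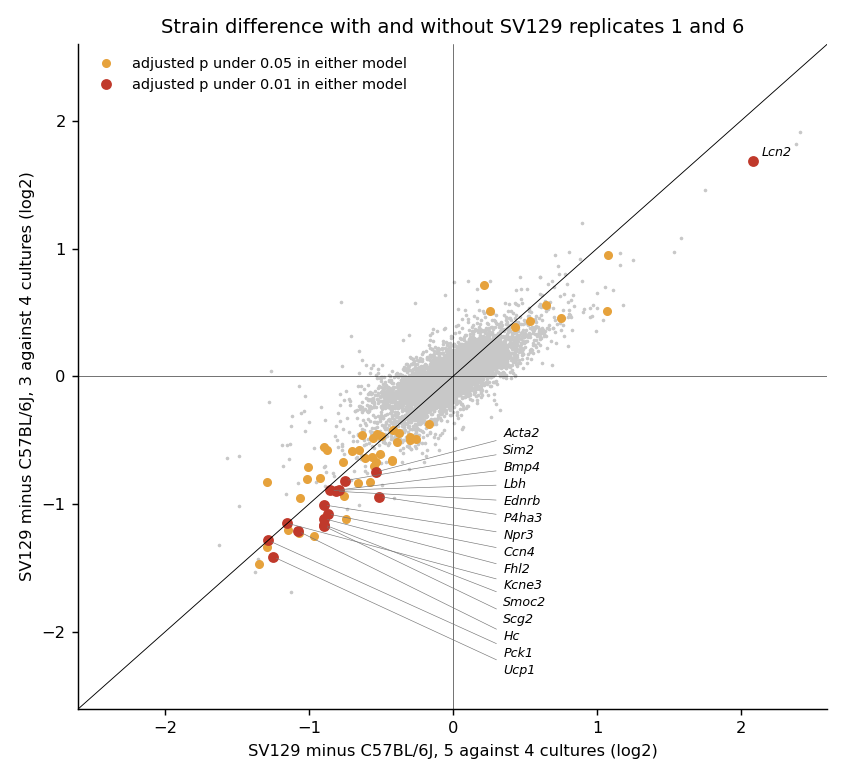
Strain difference (SV129 minus C57BL/6J, log2) of each autosomal cluster with 1 symbol over 9 cultures (x axis) and without SV129 replicates 1 and 6 (y axis). The diagonal is the line of equal differences, the 16 named genes (red) had an adjusted p under 0.01 in at least 1 of the models, and orange points had one under 0.05. Pck1 lies on the diagonal (-1.28 in both), while P4ha3 (-0.51 and -0.94) lies below it.

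The strain difference was then measured in the cultures without ROSI. At day 7 with no drug, 0 clusters (0%) passed in limma, at 0.01 or at 0.05, and 3072 had an unadjusted p under 0.05. At day 3, 1483 clusters passed (8.26%, 3.75% lower in SV129), and with NE 449 passed (2.5%, 1.94% lower and 0.562% higher in SV129). Leaving out SV129 replicate 6 brought the day 3 count to 930, and with NE the count was 912 without SV129 replicate 2 and 172 to 290 without SV129 replicate 1, 4 or 5 or C57BL/6J replicate 3, 4, 5 or 6. These cultures are not among the 9, so the differences in them are measured on other arrays.
The genes fell into those that differed in several conditions and those that differed with ROSI. Hc, Lbh and Sim2 were lower in SV129 at day 3 as well, by -0.94, -0.65 and -0.57 (limma adjusted p = 4.19e-04, 4.97e-04 and 7.71e-04), and with NE, by -1.40, -0.86 and -0.68 (0.0012, 0.00502 and 0.00215). In the day 7 controls the same genes stood at -1.04 (SE 0.33), -0.37 (SE 0.18) and -0.53 (SE 0.17), and 0 of these passed. The SV129 controls were spread widely: in replicates 1, 4, 5 and 6 Hc was 7.99, 8.33, 6.91 and 6.88, and Sim2 was 7.44, 7.46, 6.87 and 6.81. Scg2, Fhl2 and Acta2 were likewise higher in replicates 1 and 4 than in 5 and 6, and the count of 0 in the controls and the ROSI minus control values of SV129 rest on these 4 cultures. Hc fell with ROSI in C57BL/6J, by 0.87 against the controls (ROSI minus control -0.87, SE 0.14, limma adjusted p = 7.1e-04), and stood at -0.90 (SE 0.30, adjusted p = 0.083) in SV129.

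Pck1, Npr3 and Kcne3 had smaller differences in the cultures without ROSI, and 0 of them passed there. The strain difference of Pck1 was -0.07 (SE 0.04) at day 3, -0.01 (SE 0.05) in the day 7 controls and 0.10 (SE 0.05) with NE. That of Npr3 was -0.01 (SE 0.04), -0.02 (SE 0.15) and 0.05 (SE 0.08), and that of Kcne3 was -0.09 (SE 0.09), -0.07 (SE 0.09) and 0.26 (SE 0.10). Among these the smallest limma adjusted p was 0.144, that of Kcne3 with NE. Kcne3 was only 4.94 to 5.56 in the cultures without ROSI. The lower quartile of all signals was 6.40 to 6.49 on the arrays with ROSI. At signals this low a strain difference can be missed.
Ucp1 differed by -0.15 (SE 0.07) at day 3 and by -0.10 (SE 0.07) in the controls. In these 2 conditions Ucp1 was 5.87 to 6.28 in both strains, so the same limit holds. With NE it was higher in SV129 by 0.96 (SE 0.16, limma adjusted p = 0.00372), opposite to the direction with ROSI. Ucp1 was 7.08, 6.33, 7.18, 7.16 and 7.42 in SV129 replicates 1, 2, 4, 5 and 6 with NE, and 5.97 to 6.19 in C57BL/6J. Replicate 2 lay apart from the other SV129 cultures and close to the SV129 controls, whose highest value was 6.22. Hc, Lbh and Scg2 were also highest there, at 7.95, 9.15 and 7.96 against at most 7.15, 8.38 and 6.97.

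Against the controls of the same strain, the values with ROSI were further apart in C57BL/6J for these genes. Ucp1 had a mean of 6.14 in the C57BL/6J controls (range 6.08 to 6.21) and 6.04 in those of SV129 (5.94 to 6.22). With ROSI it rose by 1.89 (SE 0.07, limma adjusted p = 5.1e-08) in C57BL/6J, while the SV129 value was 0.74 (SE 0.13, adjusted p = 0.021), and 0.57 (SE 0.10, adjusted p = 0.0031) without replicates 1 and 6.
Pck1 started from 6.68 and 6.67 in the controls of C57BL/6J and SV129. It rose by 1.48 (SE 0.11, limma adjusted p = 3.4e-06) in C57BL/6J, and in SV129 the value was 0.21 (SE 0.06, adjusted p = 0.054).
For Npr3 the values were 0.91 (SE 0.12, limma adjusted p = 1.9e-04) in C57BL/6J and 0.03 (SE 0.12, adjusted p = 0.9) in SV129. For Kcne3 they were 1.46 (SE 0.14, limma adjusted p = 2.2e-05) and 0.37 (SE 0.08, adjusted p = 0.031), and for Abhd1 2.00 (SE 0.13, adjusted p = 2e-06) and 0.72 (SE 0.15, adjusted p = 0.028).
Lcn2 went the other way: it fell by 2.19 (SE 0.26, limma adjusted p = 9.6e-05) in C57BL/6J, and in SV129 the ROSI minus control value was -0.54 (SE 0.28, adjusted p = 0.24), or -0.94 (SE 0.18, adjusted p = 0.0053) without replicates 1 and 6. The controls of both strains overlapped SV129 with ROSI, at 12.05 to 13.27 in C57BL/6J and 12.62 to 13.31 in SV129.

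The difference between these differences was tested directly. In the model of 17 cultures with and without ROSI at day 7, the interaction of strain and ROSI passed for 1 cluster (0.00557%), Pck1, at -1.27 (SE 0.12, limma adjusted p = 3.31e-04). Ucp1 stood at -1.15 (SE 0.15, limma adjusted p = 0.0103) and Kcne3 at -1.09 (SE 0.17, adjusted p = 0.0468), and these 3 were all the clusters under 0.05 (0.0167%). Without SV129 ROSI replicate 2 the count was 27, of which 21 were higher and 6 lower, so that most were then in the direction opposite to Pck1. The count was 2 without SV129 ROSI replicate 1 or SV129 control replicate 1. Without SV129 replicates 1 and 6, 2 clusters passed (0.0111%), Ucp1 at -1.31 (SE 0.12, limma adjusted p = 3.01e-04) and Pck1 at -1.27 (SE 0.14, adjusted p = 0.00177), while Kcne3 was at 0.0742. The interaction of Npr3 was -0.88 (SE 0.18, limma adjusted p = 0.137) and that of Lcn2 1.65 (SE 0.41, adjusted p = 0.257). The interactions of Hc, Lbh and Sim2 were -0.03 (SE 0.37), -0.48 (SE 0.19) and -0.22 (SE 0.20), with limma adjusted p of 0.51 or more.
Against the cultures with NE, in a comparison added after the data were seen, the strain difference changed for 25 clusters (0.139%), 14 higher and 11 lower. Without SV129 ROSI replicates 1 and 6 it changed for 76 (0.423%), 62 higher and 14 lower. Ucp1 had -2.21 (SE 0.22, limma adjusted p = 5.77e-05), Pck1 -1.38 (SE 0.12, adjusted p = 1.02e-05), Kcne3 -1.41 (SE 0.17, adjusted p = 3.93e-04), Npr3 -0.95 (SE 0.12, adjusted p = 0.00135) and Abhd1 -1.73 (SE 0.20, adjusted p = 3.93e-04). Without SV129 ROSI replicates 1 and 6 these 5 genes stood at -2.37, -1.38, -1.40, -1.06 and -1.78, with limma adjusted p of 0.000768 or less.

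**Figure D3:**
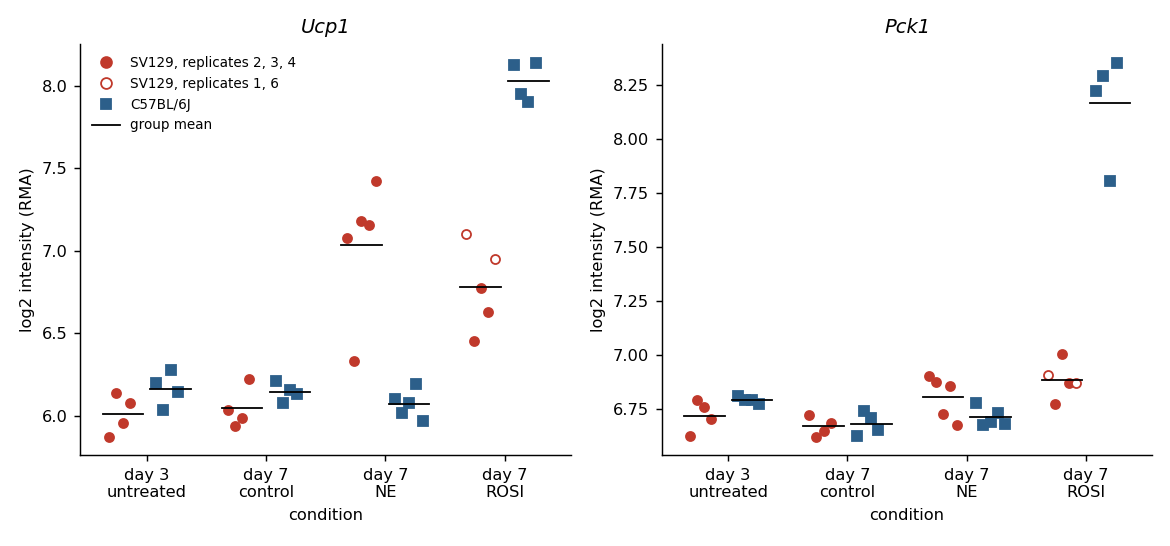
Log2 intensity (y axis) of Ucp1 (left) and Pck1 (right) in each culture of the 4 conditions (x axis), circles for SV129 (open only for replicates 1 and 6 with ROSI, filled for all replicates of the other conditions), squares for C57BL/6J, lines for group means. Both genes are highest in C57BL/6J with ROSI, and Ucp1 is also higher in SV129 with NE in 4 of 5 cultures (7.08 to 7.42), with the remaining one at 6.33.

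Among the 15 genes of the 7-culture comparison, 11 had also passed in the same direction at day 3 and 8 with NE, against the 3.75% and 1.94% of all clusters that were lower there. The 11 were all except Pck1, Ucp1, Npr3 and Lcn2. Smoc2 stood at -0.81 (SE 0.07) at day 3, -0.26 (SE 0.18) in the day 7 controls and -0.73 (SE 0.13) with NE. P4ha3 differed at day 3, by -1.14 (SE 0.09, limma adjusted p = 6.36e-05), and was at -0.06 (SE 0.18) and -0.18 (SE 0.11) in the day 7 controls and with NE.
Scg2 had its widest distance outside ROSI, at -1.37 (SE 0.44) in the controls and -1.40 (SE 0.23, limma adjusted p = 0.00382) with NE. Of the 27 genes under 0.05 with ROSI, 11 had passed in the same direction at day 3 and 8 with NE. The probes were designed on a C57BL/6J reference, and a strain difference in RNA level and one in the sequence under the probes cannot be told apart in these values. The distance of Pck1 was -1.28 with ROSI and between -0.07 and 0.10 in the other conditions. Its signal in those conditions was 6.62 to 6.90 in both strains, against array medians of 8.03 or more. Whether its probes read both strains alike was not tested.

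**Figure D4:**
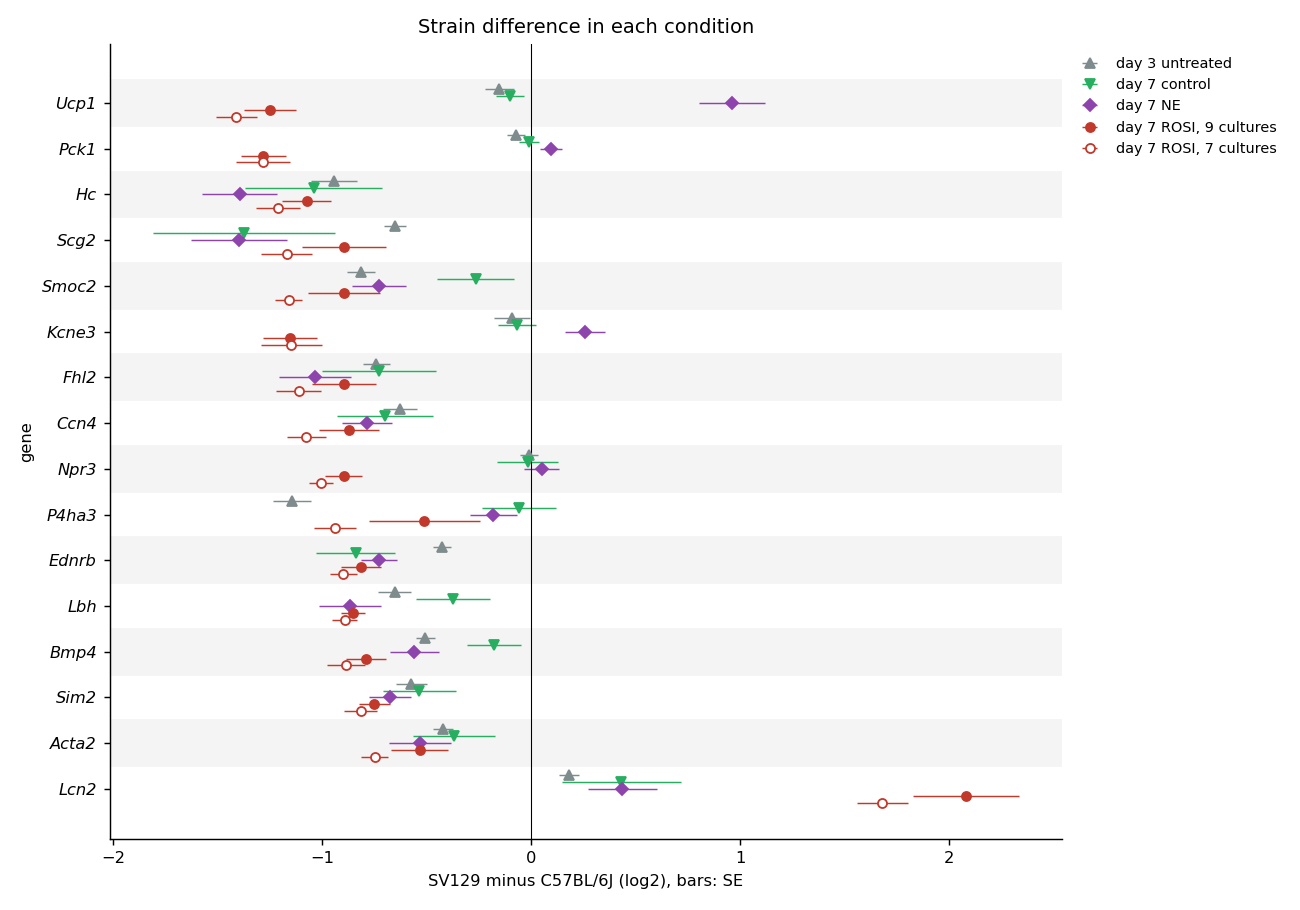
Strain difference (SV129 minus C57BL/6J, log2, x axis, bars are SE) of the 16 genes with an adjusted p under 0.01 in the 9 or 7 cultures with ROSI, in each condition. Ucp1, Pck1, Kcne3 and Npr3 lie near 0 at day 3 and in the controls and at -0.90 or lower with ROSI, while genes such as Hc, Scg2, Fhl2 and Sim2 lie below 0 in each condition.

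Lists of genes by pathway held few of these genes. As only 0.0445% of all clusters passed in 9 cultures and 0.0947% in 7, a count of 0 in a list says little about its genes. Of 22 measured PPARG targets, 1 passed (Pck1, lower in SV129) and 21 were below 0, with a median difference of -0.48, against 47.4% of all autosomal clusters below 0 and a median of 0.01. Without SV129 replicates 1 and 6 the median was -0.17, with 17 of 22 below 0, against 43.2% and a median of 0.02 over all clusters. All 18 genes of fatty acid oxidation were below 0 in 9 cultures (median -0.49) and 17 in 7 cultures (median -0.17), and 0 passed in either. The 28 genes of oxidative phosphorylation and the TCA cycle had medians of -0.33 and -0.03, with 28 and then 20 below 0, and 0 passed.
These medians moved by more than 1.5 times with the same 2 cultures. The mean log2 intensity of the 18 genes of fatty acid oxidation was 10.65 and 11.31 in SV129 replicates 1 and 6, 11.73, 11.76 and 11.94 in replicates 2, 3 and 4, and 11.85 to 11.99 in C57BL/6J. The replicates 2, 3 and 4 thus lay at or just below the C57BL/6J cultures and the replicates 1 and 6 far below. Replicate 1 was within the 10.25 to 10.91 of the SV129 cultures with NE. A lower signal from fewer fat cells in a culture and from less RNA in each cell cannot be told apart in bulk RNA.

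Single genes of these lists showed the same split. Fabp3 was 12.70, 12.72, 12.88 and 12.53 in C57BL/6J and 8.58, 12.52, 12.60, 12.79 and 11.70 in SV129. Only replicates 1 and 6 were low, and the difference went from -1.07 (SE 0.75) to -0.07 (SE 0.10) without them. Ppargc1a, a coactivator of mitochondrial genes, was 11.85, 11.94, 12.02 and 11.98 in C57BL/6J and 9.55, 11.57, 11.64, 11.90 and 10.50 in SV129.
The difference of Ppargc1a was -0.91 (SE 0.42, limma adjusted p = 0.434) with these cultures and -0.24 (SE 0.09, adjusted p = 0.461) without them. Elovl3, which lengthens fatty acids, went from -1.26 (SE 0.82) to 0.04 (SE 0.34), with SV129 replicates 1 and 6 at 6.16 and 7.35 and the other 7 cultures at 9.06 to 10.75. Pparg itself was 12.12 to 12.17 in C57BL/6J and 11.96 to 12.18 in SV129, a difference of -0.04 with a 95% interval of -0.18 to 0.09. These genes were chosen after their values were seen, except for Ppargc1a and Pparg.

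Of 23 thermogenic genes, 1 passed in either comparison (Ucp1, lower), with medians of -0.18 and -0.01 in 9 and 7 cultures. Among the other members, Cox8b, a cytochrome oxidase subunit of brown fat, was at -1.13 (SE 0.39, limma adjusted p = 0.335) and -0.53 (SE 0.19, adjusted p = 0.441), with SV129 replicate 4 at 12.57 and within the C57BL/6J range of 12.48 to 12.76. Cidea, a lipid droplet protein of brown and beige cells, was at -0.44 (SE 0.21) and -0.13 (SE 0.13), and lay in the lowest 25% of the signals on all 9 arrays. In the 7 cultures the distance of Ucp1 (-1.41) was thus far from the median of its list (-0.01).

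The lists of general fat cell genes had medians nearer to 0 without replicates 1 and 6. The 19 genes of adipocyte identity had medians of -0.23 and -0.08 in 9 and 7 cultures, the 15 of fatty acid synthesis -0.21 and -0.10, and the 14 of triglyceride synthesis -0.18 and -0.02, with 0 passing in each. Adipoq differed by -0.36 (SE 0.17, limma adjusted p = 0.447) and -0.10 (SE 0.07, adjusted p = 0.772), and Fabp4, the fatty acid carrier of fat cells, by -0.45 (SE 0.17, adjusted p = 0.361) and -0.22 (SE 0.06, adjusted p = 0.276).

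Lists of precursor, cell cycle and inflammatory genes had medians above 0. Of 22 cell cycle genes, 0 were below 0 in 9 cultures (median 0.31) and 5 were in 7 cultures (median 0.12), with 0 passing. The 16 preadipocyte markers had medians of 0.12 and 0.05. Of 18 inflammatory mediators, Lcn2 passed in the 7 cultures and the medians were 0.27 and 0.10. The neutrophil attractant Cxcl5 had the widest distance of that list, at 5.81 to 6.33 in C57BL/6J and 9.66, 9.68, 7.37, 6.64 and 8.94 in SV129. Its groups did not overlap, and the spread within SV129 was wide, so that 2.38 (SE 0.59) did not pass (limma adjusted p = 0.181). Ptgs2, the inducible cyclooxygenase, was at 1.16 (SE 0.32, limma adjusted p = 0.24) in the same 9 cultures. Without SV129 replicates 1 and 6, Lcn2 was the only gene of this list with a limma adjusted p under 0.05.

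Markers of other cells were compared as well. Of 12 smooth muscle and mural markers, Acta2 passed in the 7 cultures. There Tagln, an actin-binding protein of the same cells, was at -1.10 (SE 0.12, limma adjusted p = 0.01). In the 9 cultures, 0 of the 12 had a limma adjusted p under 0.05. The medians of this list were -0.03 and -0.15, and its mean was 7.82 to 8.07 in SV129 and 8.05 to 8.10 in C57BL/6J. The part of mural cells in the differences of Acta2 and Smoc2 was not tested. Of 15 macrophage markers 0 passed, against 0.0445% of all clusters in 9 cultures and 0.0947% in 7. The medians of this list were -0.24 and -0.20, and its mean was 7.91 to 8.45 in SV129 (highest in replicate 2) and 8.29 to 8.40 in C57BL/6J. At day 3, 5 of the 15 passed as lower in SV129 and 0 as higher, against 3.75% of all clusters lower. With NE these counts were also 5 and 0, against 1.94% lower. Endothelial (12), skeletal muscle (11), epithelial (11) and Schwann cell (7) markers had medians between -0.01 and 0.09 in 9 cultures, with 0 passing. The 26 genes of the extracellular matrix had medians of -0.0029 and -0.09, with 0 passing.
The lists of interferon response (18 genes), antigen presentation (10) and the antioxidant response (25) had medians of 0.04, 0.02 and 0.04 in 9 cultures, and 0 of their genes passed. Of 11 genes with sequence variants known between mouse strains and 8 genes that the study examined, 0 passed in either comparison. Over all clusters 0.0445% passed in 9 cultures and 0.0947% in 7, so these counts of 0 say little about the lists. Nnt, a mitochondrial transhydrogenase with a deletion known in some C57BL/6 substrains, was 9.24 to 9.36 in C57BL/6J and 9.32 to 9.75 in SV129 (0.29, SE 0.10, limma adjusted p = 0.345). The Y-linked gene Eif2s3y was 9.84 to 10.55 in all 9 cultures, above the median of each array.

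**Figure D5:**
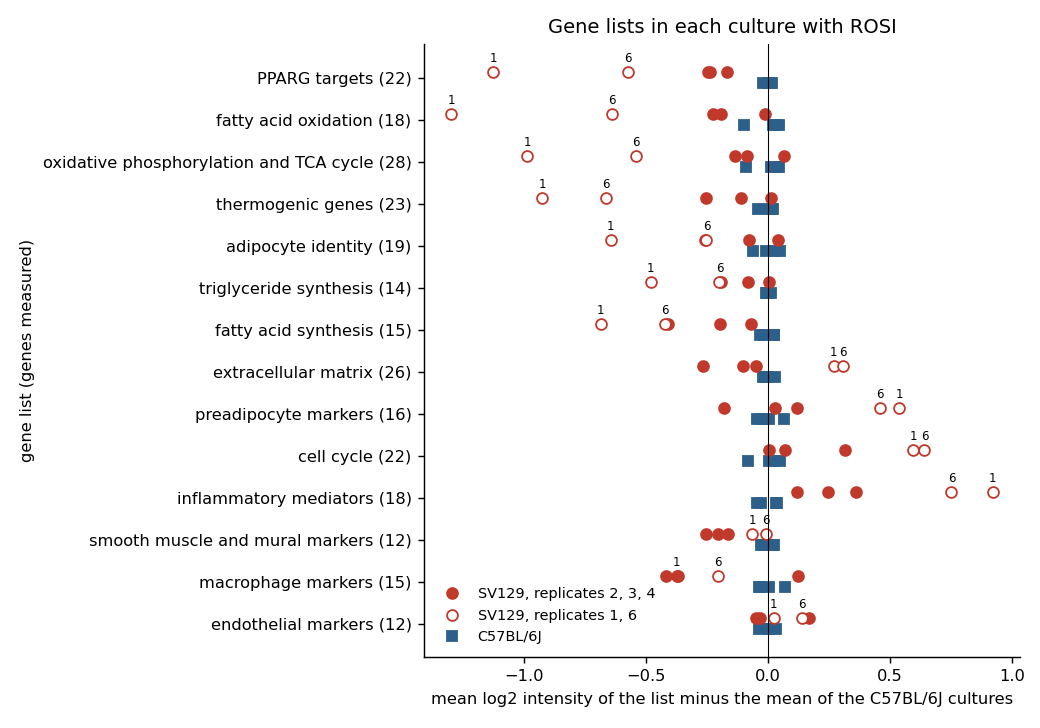
Mean log2 intensity of each gene list in each culture with ROSI, minus the mean of the C57BL/6J cultures (x axis), for 14 lists (y axis, number of genes measured in brackets). Squares are C57BL/6J, filled circles SV129 replicates 2, 3 and 4, and open circles SV129 replicates 1 and 6. The open circles lie far to the left in the lists of fatty acid oxidation, PPARG targets, oxidative phosphorylation and thermogenic genes. They lie furthest to the right in those of inflammation and the cell cycle.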

How the data were processed

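Gene expression was measured in 35 cultures on Mouse Exon 1.0 ST arrays, of which the 9 day 7 cultures with ROSI carry the main comparison. The deposited values are log2 intensities per transcript cluster, which the authors computed by RMA in Affymetrix Power Tools, whose version the sources used here do not give. The values were used as deposited, and 0 columns of values were left out. Arrays have no depth: the number of arrays and the spread between them set the precision. Of 17958 clusters, 15621 carry 1 symbol, 1370 several and 967 none. RefSeq (GRCm38.p6) matched 15560 of the 15621 by gene ID and 34 by symbol, which left 15070 autosomal clusters.

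Strains were compared with limma 3.58.1 in R 4.3.3 (lmFit, eBayes, two-sided, Benjamini-Hochberg over all clusters at 0.01), on the groups compared alone. Tables were read with pandas 2.3.3, and figures drawn with matplotlib 3.10.9 in Python 3.11.15. The code was tested on simulated data. The interactions used the same model with 4 groups. Distances between arrays are root mean squares over all clusters, with the array itself left out of the mean. The 23 gene lists held 434 entries, 368 of them measured, and for a gene with several clusters that with the highest mean was used.

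The genes named were autosomal with 1 symbol: up to 12 per direction by size among those that passed in 9 cultures, 10 in 7 cultures and 6 in the interaction, up to 4 per list, and Ucp1, Cidea, Ppargc1a, Pparg, Adipoq and Fabp4 with the lists of variants and of study genes. All genes that passed, and those under 0.05 in 9 cultures, were added. Fabp3, Elovl3, Cox8b, Cxcl5, Ptgs2, Tagln and Slc2a4 fall outside this rule and were picked with their values in view. The cultures, members and lists were chosen with earlier results of these data known.

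The alternatives tried were an adjusted p of 0.05, differences over 0.585 alone, all 35 or the 17 day 7 control and ROSI arrays in one model, an intensity trend, robust moderation, array weights, median centring, quantile normalization, no clusters of the dimmest 25%, the replicate number as a block, and each culture left out in turn.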

Additional observations from a re-analysis of the deposited data

Results flagged for a closer look

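Among 76 groups of 4 or 5 cultures, 3 held a culture far from the others of its group, and chance alone gives this in about 1 in 20 groups. Scg2 was 7.02 in C57BL/6J replicate 2 and 7.25 to 7.28 in the other C57BL/6J cultures. Ednrb was 9.53 in SV129 replicate 6 and 9.10 to 9.12 in the other SV129 cultures. The mean of the fatty acid oxidation genes was 11.85 in C57BL/6J replicate 6 and 11.97 to 11.99 in the other C57BL/6J cultures.

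For 4 of the 7 genes, the strain difference with ROSI differed from that in another condition by a limma interaction test. Against the day 7 controls this was Pck1, at -1.27 on the log2 scale. Against NE these were Ucp1 (-2.21), Kcne3 (-1.41), Pck1 (-1.38) and Npr3 (-0.95). Each negative value means that SV129 was lower relative to C57BL/6J with ROSI than in the other condition.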

How the results depend on the processing

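The values are counts of clusters. No gene that passed changed sign, while 7 named genes that passed in no setting changed sign in at least 1. With 9 cultures, the 8 clusters became 32 at a threshold of 0.05, 452 with all arrays in one model (220 higher, 232 lower), 29 with the control and ROSI arrays in one model, 21 with array weights, 5 after quantile normalization and 17 without SV129 replicates 1 and 6 together. They ranged from 1 to 58 when 1 culture was left out. Without SV129 replicates 1 and 6, the 17 became 66 at 0.05, 160 with all arrays (49 higher, 111 lower), 26 with an intensity trend, 28 with array weights, 32 after median centring, 27 after quantile normalization and 35 without the dimmest 25%, with a range of 7 to 207 when 1 more culture was left out. The interaction passed for 3 clusters at 0.05, 37 with all arrays, 2 after quantile normalization, without the dimmest 25% or without SV129 replicates 1 and 6 together, and 1 to 27 when 1 culture was left out. The 27, without SV129 ROSI replicate 2, were 21 higher and 6 lower, against 0 higher and 1 lower. Models over more arrays assume one spread for all groups, and the cause of the other changes was not tested. The controls gave 0 to 1, day 3 gave 2701 at 0.05 and 930 to 1330 with 1 culture left out (637 higher and 693 lower without C57BL/6J replicate 2, against 810 and 673), and NE gave 1216 at 0.05 and 172 to 912. After quantile normalization NE gave 627 (236 higher, 391 lower), against 101 higher and 348 lower as deposited. The difference between ROSI and NE changed for 76 clusters in place of 25 without SV129 ROSI replicates 1 and 6. The single cultures behind the ranges were named with the counts, and for the controls it was SV129 replicate 1.

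With the replicate number as a block, 0 clusters passed in the 9 cultures, in the 7 cultures, in the interaction and at day 3 (limma), and 446 passed with NE. The samples were taken to share only a number. The deviations of same-numbered cultures correlated at 0.169, 0.025, -0.08 and 0.099 for replicates 2, 3, 4 and 6. A culture was closest to its own number in 3 of 8 cases, which were both cultures of replicate 2 and SV129 replicate 6. So few pairs cannot exclude a shared origin of same-numbered cultures. The block also leaves fewer arrays to estimate the spread, and what removed the calls was not tested. Of the 7 genes, Lbh passed in 18 of 19 alternatives (highest adjusted p 0.013, with the block), Pck1 in 13, Ucp1 in 12, Npr3 and Sim2 in 11, Hc in 8 of 19 and Kcne3 in 6 of 18.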
